A study of Mus musculus with 6 samples.

Results

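The Ifi200 genes form a cluster on mouse chromosome 1 and encode related interferon-inducible proteins. The genes described here are Ifi202b, Ifi203, Ifi204, Ifi205, Mnda and Aim2. Their values were taken from every probe set of the Mouse 430 2.0 array annotated to any of these 6 genes, including probe sets that the annotation assigns to several genes. These are 6 of 19324 genes in the annotation, and 10 of the 45101 probe sets on the array. Mnda is not a symbol in the array annotation, and it was found through the RefSeq synonyms as Ifi211. The cluster was selected on the signals of Ifi202b, which differed between the Slc39a13-KO arrays, so the values of Ifi202b are given as a description without a test. The question asked of the data was whether the neighboring genes differed in the same way.

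The arrays were hybridized with total RNA of primary chondrocytes, which had been released from rib cage cartilage of newborn pups with collagenase and cultured. There were 2 groups with 3 arrays each, wild-type and Slc39a13-KO, and no cells were treated. In the KO mice, exons of the zinc transporter gene Slc39a13 were replaced by a neomycin cassette in R1 embryonic stem cells. The strain background of the mice behind each array, their sex, and whether a culture came from a single pup are not given in the sources used here. The replicates are named as separate samples only, and p-values cover only the spread among them, which may be technical. Values are the deposited signals on a linear scale, and log2 values are log2(signal + 7.96).

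Ifi200 proteins share a DNA-binding HIN domain, and most also carry a pyrin domain through which they bind other proteins. AIM2 binds DNA in the cytosol and assembles an inflammasome with the adaptor Pycard (ASC), which activates caspase-1. Ifi202b has HIN domains but no pyrin domain, and it binds DNA without recruiting Pycard. Interferon induces many genes of the family, and the level of Ifi202b is known to differ between inbred mouse strains. In the gene order of RefSeq the cluster runs from Aim2 to Ifi205, and Ifi202b lies between Ifi203 and Ifi205.

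The upstream sequences of the cluster are shown first, because its genes are close copies of each other. The sequences are from RefSeq on GRCm38.p6 (strain C57BL/6J), all genes shown lie on the minus strand, and each sequence is written 5′ to 3′ on the strand of the gene. The capitals mark the letters GAAANNGAAA, the pattern of the interferon-stimulated response element, or in Ifi202b the letters TTCNNNGAA, the pattern of the gamma-interferon activation site. The stretch of Ifi202b covers the 250 bases before the annotated gene start, and the others cover the bases around the pattern. These other genes were chosen because they hold GAAANNGAAA on the strand of the gene, so their contrast with Ifi202b follows from that choice. Aim2, which lacks the pattern, is not shown. For Ifi203 and Mndal, which have several promoters, only the promoter with the pattern on that strand is shown.

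Ifi202b, chr1:173982845-173983094: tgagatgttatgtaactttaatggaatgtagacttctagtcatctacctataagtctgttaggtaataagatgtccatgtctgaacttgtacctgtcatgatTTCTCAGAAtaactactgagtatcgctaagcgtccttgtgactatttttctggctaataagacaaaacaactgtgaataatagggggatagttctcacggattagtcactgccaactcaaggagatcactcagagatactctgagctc
Ifi203, chr1:173942493-173942547: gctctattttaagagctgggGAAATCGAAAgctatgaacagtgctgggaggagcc
Mndal, chr1:173880188-173880243: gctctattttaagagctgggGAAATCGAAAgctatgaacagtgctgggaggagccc
Ifi211 (Mnda), chr1:173913047-173913103: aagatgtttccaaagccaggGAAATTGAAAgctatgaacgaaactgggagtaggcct
Ifi205, chr1:174031850-174031909: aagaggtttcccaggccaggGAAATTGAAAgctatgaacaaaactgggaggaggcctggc
Ifi207, chr1:173741811-173741870: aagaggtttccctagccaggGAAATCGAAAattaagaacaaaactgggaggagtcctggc

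The RefSeq promoter table, which gives 250 bases before and 50 after each gene start, held 12 genes of the cluster. Searched on both strands, GAAANNGAAA was present in 9 of these 12 genes, against 1079 of the 27025 genes in the table (3.99%). Of the listed genes, Ifi203, Ifi205 and Mnda (Ifi211) held it, Ifi202b and Aim2 did not, and Ifi204 has no entry in the table. The cluster genes are related copies, so their matches are not independent of each other. The 20 bases around the pattern in Ifi203 recurred without a mismatch in Mndal and with 1 mismatch in Ifi205, Ifi206, Ifi208, Ifi211 and Ifi213. The closest stretch in Ifi202b differed from these 20 bases at 9 positions, and 63.2% of all promoters held a stretch at least as close. Ifi202b was not alone in this, since Aim2 and another promoter of Mndal also differed at 9 positions. Another promoter of Ifi203 differed at 10 positions (93.4% of all promoters as close), and Ifi209 also lacked GAAANNGAAA. Ifi202b instead held TTCNNNGAA, which reads alike on both strands, starting 148 bases before the gene start. This pattern was present in 9.55% of the genes in the table. These matches describe letters only, and no binding was measured.

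Ifi202b was bright on 2 of the 6 arrays, both of them KO. On its probe set 1421551_s_at the wild-type signals were 6.41, 3.29 and 24.8, and the KO signals were 41.7, 1255 and 1304. On 1457666_s_at, which the annotation also assigns to LOC100044068, the wild-type signals were 31.3, 1.25 and 36.2, and the KO signals were 42.9, 1557 and 1960. KO replicates 2 and 3 were thus far above all other arrays on both probe sets, while KO replicate 1 lay just above the brightest wild-type array. Over the 6 arrays the log2 values of both probe sets had a Pearson correlation of 0.98, and probe sets of the same gene are not independent.

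The group means hide this split. The mean signal of 1421551_s_at was 11.5 ± 11.6 in wild type and 867 ± 715 in KO (SD, n = 3 each), and that of 1457666_s_at was 22.9 ± 18.9 and 1187 ± 1011 (SD, n = 3 each). On the log2 scale, KO replicates 1, 2 and 3 were 1.51, 6.18 and 6.23 above the wild-type mean on 1421551_s_at. On 1457666_s_at they were 1.01, 5.96 and 6.29 above it. The wild-type values and that of KO replicate 1 lie under 47.8, the signal at which probe sets were filtered as dim, so the size of these differences depends on the pseudocount. Without wild-type replicate 2, whose signal was 1.25, KO replicate 1 stood 0.29 above the wild-type mean on 1457666_s_at. Both probe sets passed that filter only through KO replicates 2 and 3.

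**Figure D1:**
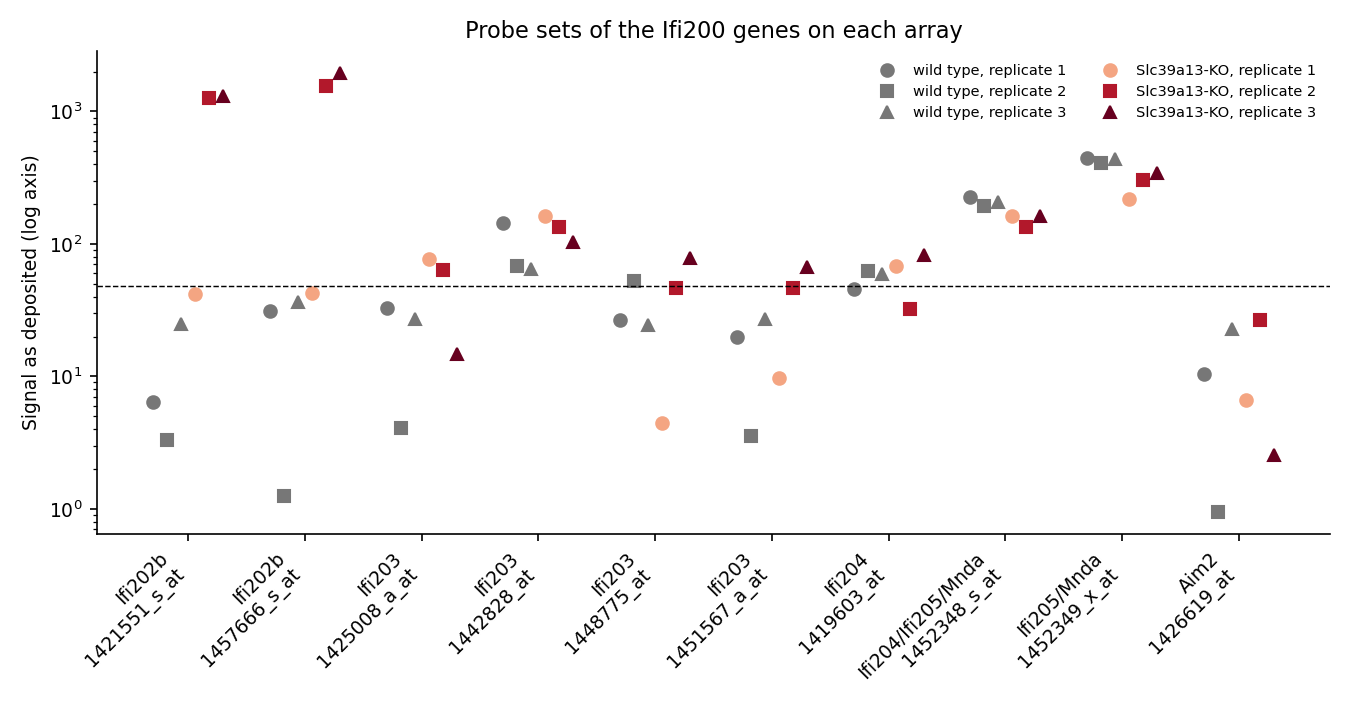
Deposited signal (log axis) of the 10 probe sets of the Ifi200 genes on each of the 6 arrays, in grey for the 3 wild-type and in color for the 3 Slc39a13-KO arrays, with the dim-signal filter of 47.8 as a dashed line. Only on the 2 Ifi202b probe sets do KO replicates 2 and 3 (1255 to 1960) stand far above the line with the other 4 arrays under it.

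The other listed genes did not show this pattern. Their annotation covers 8 probe sets, of which 4 passed the filter on dim signals, and limma called 0 of the 4 higher and 0 lower in KO. Over all 27022 probe sets tested, 2.87% were called higher and 2.89% lower. At an unadjusted p under 0.05 the count was 0 higher and 2 lower, and limma without its trend and a plain test of each probe set with no shared variance each called 0. No share over all tested probe sets is given at an unadjusted p, here or below, so such counts have no background. The median log2 difference of the 4 was -0.20, against 0.014 over all tested probe sets. Of the 4 probe sets, 1 had KO arrays that differed by at least 1 on the log2 scale, against 18.1% of all tested probe sets, so the count of 1 is close to the background. In no case did KO replicates 2 and 3 both stand above the other arrays among these 4.

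Ifi203, an interferon-inducible nuclear protein whose gene lies next to Ifi202b, was measured above the filter by 1442828_at. Its signals were 143, 68.3 and 64.6 in wild type and 161, 133 and 103 in KO. The groups overlapped, and KO replicate 1 was the highest of the KO arrays. The mean was 91.9 ± 44.0 in wild type and 132 ± 29.3 in KO (SD, n = 3 each), a log2 difference of 0.56 with a standard error of 0.35 (adjusted p = 0.400 from limma). Leaving out wild-type replicate 1 moved the difference to 0.89, and leaving out replicate 3 of that group moved it to 0.37, with no call in either case. The KO arrays differed by at most 0.61 on the log2 scale, against 4.72 and 5.27 for the Ifi202b probe sets.

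The 3 other Ifi203 probe sets, all shared with the pseudogene Ifi203-ps, lay under the filter. On 1425008_a_at the signals were 32.6, 4.07 and 27.2 in wild type and 76.6, 63.9 and 14.8 in KO. On 1448775_at they were 26.7, 52.3 and 24.6 in wild type and 4.45, 46.9 and 78.5 in KO. On 1451567_a_at they were 20.0003, 3.53 and 27.3 in wild type and 9.78, 46.6 and 67.0 in KO. The last of these had the order of Ifi202b, with KO replicates 2 and 3 highest, and a Pearson correlation of 0.91 with the brighter Ifi202b probe set over the 6 arrays. Its highest signal was nevertheless 67.0, and its groups overlapped. For the other 2 probe sets the correlation was 0.31 and 0.44. With all probe sets in the fit, limma gave the 3 probe sets adjusted p-values of 0.554, 0.978 and 0.601, in the order above.

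Ifi204, a nuclear and cytoplasmic protein that takes part in DNA sensing, was measured alone by 1419603_at, with signals of 45.9, 62.2 and 58.8 in wild type and 67.7, 32.1 and 83.2 in KO. KO replicate 2 was the lowest and KO replicate 3 the highest of all 6 arrays, so the 2 arrays on which Ifi202b was bright stood at opposite ends. The mean was 55.6 ± 8.61 in wild type and 61.0 ± 26.2 in KO (SD, n = 3 each). The log2 difference of 0.043 (standard error 0.44, adjusted p = 0.969 from limma) has no stable sign, since quantile normalization turned it to -0.10. Its KO arrays spanned 1.19 on the log2 scale. This is the 1 probe set counted above, and it lies among the dimmest 25% of the tested probe sets, of which 51.8% spanned at least 1.

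The brightest signals of the cluster in wild-type cells came from the 2 probe sets that Ifi205 and Mnda (Ifi211) share. 1452349_x_at, annotated to both genes, had signals of 442, 410 and 438 in wild type and 219, 303 and 341 in KO. 1452348_s_at, which the annotation assigns to Mndal and Ifi204 as well, had 227, 195 and 206 in wild type and 162, 135 and 163 in KO. On both, all KO arrays lay under all wild-type arrays, KO replicate 1 included. The same separation with KO lower was found in 13.1% of all tested probe sets.

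On 1452349_x_at the mean fell from 430 ± 17.6 to 288 ± 62.0 (SD, n = 3 each) and the log2 difference was -0.59 with a standard error of 0.17, but the adjusted p of 0.0816 from limma did not pass the threshold of 0.05. Without KO replicate 3 the difference was -0.72 and passed it (adjusted p = 0.0393 from limma). On 1452348_s_at the means were 209 ± 16.4 and 153 ± 16.0 (SD, n = 3 each), with a log2 difference of -0.43 (standard error 0.19, limma adjusted p = 0.228). The KO arrays differed among themselves by 0.62 and 0.26 on the log2 scale. Since the probe sets are shared, the signal cannot be divided between Ifi205, Mnda, Mndal and Ifi204.

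Aim2, the cytosolic DNA sensor at the other end of the cluster, gave signals of 10.4, 0.940 and 22.8 in wild type and 6.63, 26.4 and 2.57 in KO on 1426619_at. All 6 values lie under the filter, the groups overlapped, and the KO arrays on which Ifi202b was bright gave 26.4 and 2.57. The means were 11.4 ± 10.97 and 11.9 ± 12.8 (SD, n = 3 each). A difference in Aim2 was not detectable at this signal.

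The array carries 7 further probe sets for cluster genes that are not among the listed ones, Ifi207, Ifi209, Ifi213 and Mndal, and 1 of them passed the filter. This Mndal probe set, 1452231_x_at, had signals of 89.3, 61.8 and 84.4 in wild type and 48.2, 106 and 92.3 in KO, a log2 difference of 0.013 (adjusted p = 0.989 from limma). KO replicates 2 and 3 were the highest of its arrays, by a small margin over the brightest wild-type array. The Ifi207 signals were 2.52, 1.61 and 0.533 in wild type and 35.0, 4.12 and 1.61 in KO, all under the filter.

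**Figure D2:**
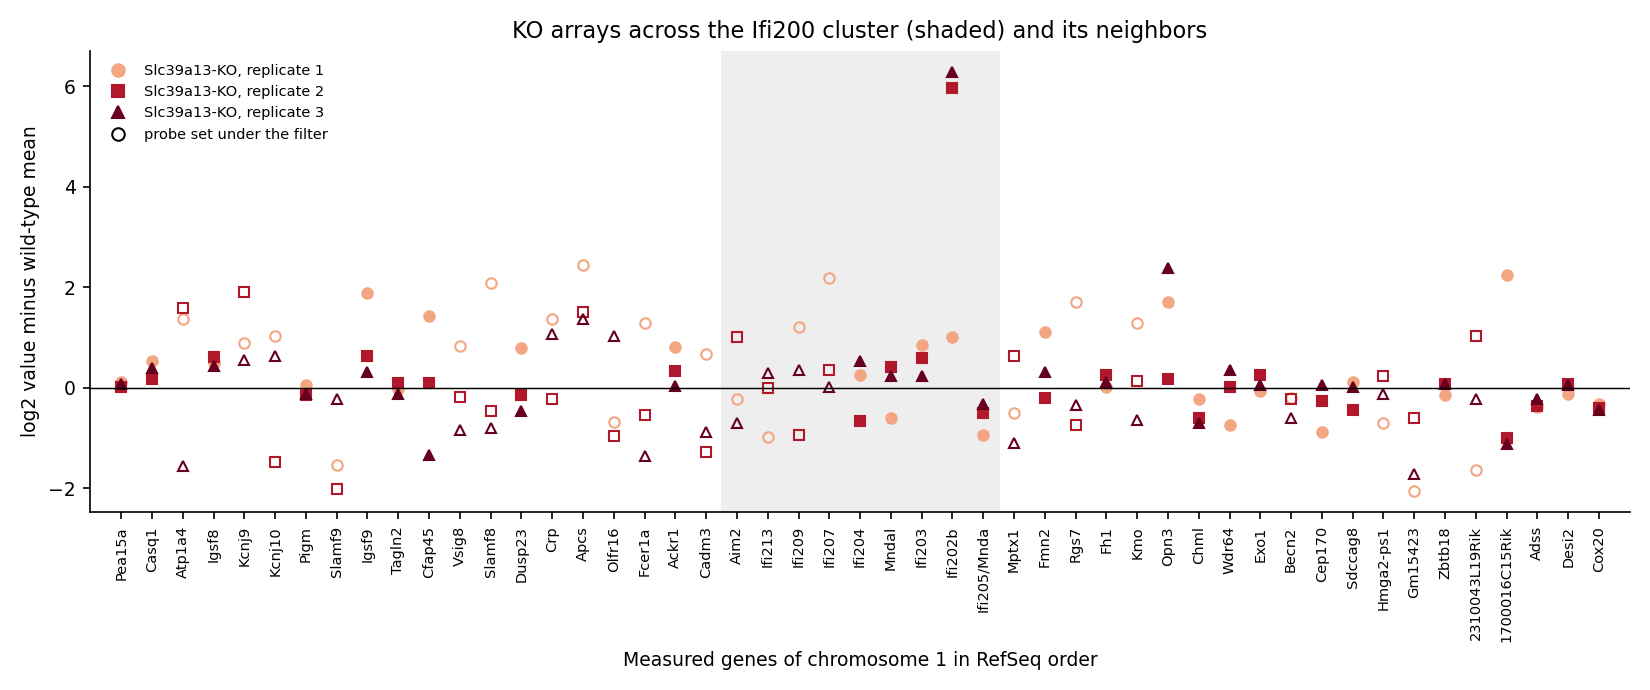
Difference of each Slc39a13-KO array from the wild-type mean (log2 value, y axis) for the cluster genes (shaded) and the 20 nearest measured genes on each side, in RefSeq order along chromosome 1; open symbols are probe sets under the dim-signal filter. Ifi202b is shown by its brighter probe set, where KO replicates 2 and 3 lie at 5.96 and 6.29 and KO replicate 1 at 1.01.

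Outside the cluster, the 20 nearest measured genes on each side were taken in RefSeq order, and 22 of these 40 genes had a probe set past the filter. Limma called 1 of the 22 higher and 0 lower in KO, against 2.87% and 2.89% of all tested probe sets. At an unadjusted p under 0.05 the counts were 2 and 3, and limma without its trend and the plain test called 0. The gene called was Igsf8, an immunoglobulin-family membrane protein, with signals of 442, 380 and 356 in wild type and 555, 598 and 532 in KO. Its log2 difference was 0.51, with a standard error of 0.13 and an adjusted p of 0.0483 from limma. The call was lost when any 1 of the 6 arrays was left out, with adjusted p-values from 0.0510 to 0.182, and all 3 KO arrays were raised alike.

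Of the 22 neighbors, 7 had KO arrays at least 1 apart on the log2 scale, against 18.1% of all tested probe sets and 51.8% of the dimmest 25%. These were Dusp23, Cfap45, Igsf9, Fmn2, Opn3, Wdr64 and 1700016C15Rik. KO replicate 3 was the highest KO array in Opn3 and Wdr64, and KO replicate 1, where Ifi202b was dim, in the rest. All 7 were among the 10 neighbors that lay under the median level of the tested probe sets. Over these 10 the median log2 difference from the wild-type mean was 0.96, 0.053 and 0.18 on KO replicates 1, 2 and 3. No such median over all dim probe sets is given, so these values have no background. The median signal over all probe sets was 108 on KO replicate 1, against 80.5 to 88.1 on the other arrays. The wild-type means of Igsf9, Fmn2, Opn3 and 1700016C15Rik lay under the filter, so these 4 passed it only through KO arrays. Among the 12 brighter neighbors 0 reached a span of 1, and their spans ran from 0.096 to 0.95.

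KO replicates 2 and 3 were both above the other 4 arrays in 2 of the 22 neighbors, Fh1 and Desi2, against 8.54% of all tested probe sets. The signals of Fh1, a mitochondrial fumarate hydratase and the second tested gene beyond Ifi205, were 4240, 3852 and 3889 in wild type and 4045, 4771 and 4309 in KO. The nearest tested genes were Ackr1 before the cluster and Fmn2 after it. Ackr1, an atypical chemokine receptor, had 140, 112 and 101 in wild type and 210, 148 and 120 in KO, with KO replicate 1 highest. Fmn2, an actin nucleator, had 52.4, 40.3 and 39.1 in wild type and 104, 36.5 and 56.4 in KO, again with KO replicate 1 highest.

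**Figure D3:**
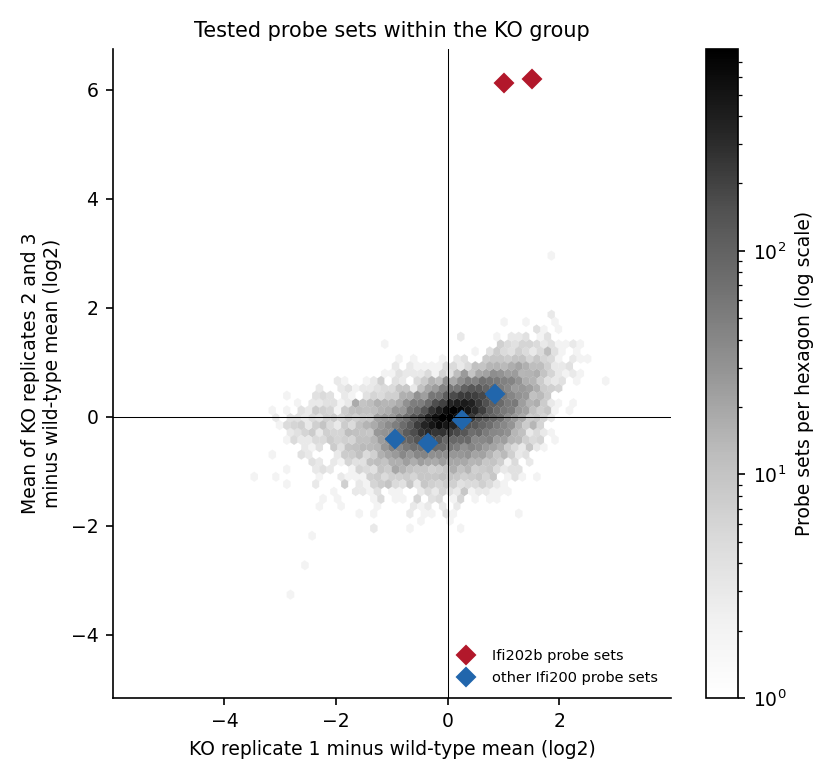
All 27022 tested probe sets by their log2 difference from the wild-type mean on KO replicate 1 (x axis) and on the mean of KO replicates 2 and 3 (y axis), with darker hexagons holding more probe sets (log scale). The 2 Ifi202b probe sets (red) stand apart at the top, and the 4 other tested Ifi200 probe sets (blue) lie within the cloud.

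No other tested probe set had a step of the size seen in Ifi202b. The gap was measured as the lower of KO replicates 2 and 3 minus the highest of the other 4 arrays. It was 4.94 and 4.67 on the log2 scale for the Ifi202b probe sets, which ranked 1 and 2 among the 27022 tested, and these values chose the gene. The largest gap outside Ifi202b was 1.58. A gap of at least 1 was found for 13 probe sets (0.0481%), 2 of Ifi202b and 11 others. The genes whose log2 values followed the brighter Ifi202b probe set most closely over the 6 arrays, among 12725 genes compared, were 4930524J08Rik, Pkmyt1, Mc1r, Pmepa1 and Trappc9. Each had a Pearson correlation of 0.98, and 40 genes (0.314%) had at least 0.95. These genes lie on chromosomes 5, 17, 8, 2 and 15.

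Their steps were small beside that of Ifi202b. Pmepa1, a transmembrane protein that restrains TGF-β signaling, had signals of 1463, 1388 and 1460 in wild type and 1496, 2387 and 2315 in KO. Mc1r, the melanocortin receptor, had 46.3, 32.2 and 46.5 in wild type and 39.0, 78.2 and 85.7 in KO. With 6 arrays and a pattern fixed by 2 of them, such a correlation describes the shape of the pattern over the arrays and not the size of a change.

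Interferon-stimulated genes as a group did not follow Ifi202b. Of 50 listed genes, 45 had a probe set of their own on the array and 32 passed the filter. Limma called 0 of the 32 higher and 2 lower in KO, against 2.87% and 2.89% of all tested probe sets. At an unadjusted p under 0.05 the counts were 1 higher and 10 lower, and limma without its trend and the plain test called 0. The 2.87% and 2.89% hold at the adjusted threshold only and are no background for these unadjusted counts. The median log2 difference of the list was -0.23. By array the median difference from the wild-type mean was 0.0012 on KO replicate 1, -0.38 on KO replicate 2 and -0.25 on KO replicate 3. On these unscaled values KO replicates 2 and 3, where Ifi202b was bright, were the lower ones for this list. Over all probe sets the median signal was 108 on KO replicate 1, against 80.5 to 88.1 on the other arrays. The main comparison did not rescale the arrays. Median centring shifts all probe sets of an array alike, and on 1421551_s_at it took KO replicate 1 from 1.51 to 1.17 above the wild-type mean. KO replicates 2 and 3 went from 6.18 and 6.23 to 6.21 and 6.25. The list medians by array are given for unscaled values only, and the part of this shift in their order was not tested. None of the 32 genes had a gap of at least 1 between KO replicates 2 and 3 and the rest, and the highest gap was 0.012. KO arrays spanned at least 1 in 12 of the 32, against 18.1% of all tested probe sets and 51.8% of the dimmest 25%.

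The genes that fell were Gbp2 and Ifitm3. Gbp2, an interferon-induced GTPase, had signals of 174, 150 and 205 in wild type and 64.1, 44.2 and 30.6 in KO. Its mean went from 176 ± 27.6 to 46.3 ± 16.8 (SD, n = 3 each), a log2 difference of -1.80 with a standard error of 0.33 (adjusted p = 0.0134 from limma), and its KO mean lies under the filter. The other tested probe set of Gbp2 did not pass. Ifitm3, a membrane protein that blocks entry of viruses, had 6060, 6265 and 6105 in wild type and 5054, 4801 and 4491 in KO. Its log2 difference was -0.36 (standard error 0.08, adjusted p = 0.0249 from limma). In both genes KO replicate 3 was the lowest array and all KO arrays were under all wild-type arrays. Leaving out any 1 wild-type array ended both calls, with adjusted p-values from 0.0680 to 0.0909 for Gbp2 and from 0.0896 to 0.138 for Ifitm3. Leaving out KO replicate 2 ended that of Ifitm3 (0.0688).

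**Figure D4:**
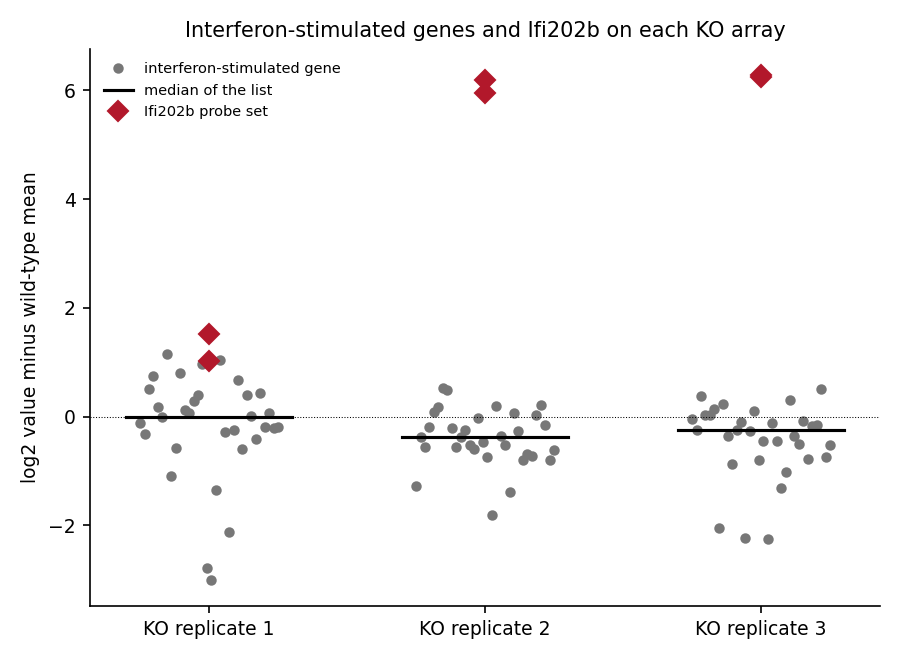
Log2 difference from the wild-type mean (y axis) of the 32 tested interferon-stimulated genes (grey points, with their median as a bar) and the 2 Ifi202b probe sets (red diamonds) on each Slc39a13-KO array. The list median is 0.0012, -0.38 and -0.25 on KO replicates 1, 2 and 3, while Ifi202b lies between 5.96 and 6.29 on replicates 2 and 3.

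The receptors and kinases of interferon signaling were mostly without a call. Of 15 listed genes 12 were tested, with 0 higher and 1 lower, against 2.87% and 2.89% of all tested probe sets, and a median log2 difference of -0.081. At an unadjusted p under 0.05 the counts were 0 and 1. The gene that fell was Ifngr2, a chain of the interferon gamma receptor, with signals of 460, 466 and 462 in wild type and 295, 329 and 347 in KO. The log2 difference was -0.51 (standard error 0.13, adjusted p = 0.0486 from limma), and its other tested probe set did not pass. The call was lost without any 1 wild-type array (0.156 to 0.187), without KO replicate 1 (0.0711) and without KO replicate 2 (0.0956). It was also lost with no filter (0.0671), median centring (0.178), limma without its trend (0.102) and the plain test (0.0931).

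The genes that act beside AIM2 in DNA sensing and the inflammasome included 13 tested genes, of which 0 rose and 2 fell, against 2.87% and 2.89% of all tested probe sets, with a median log2 difference of -0.25. At an unadjusted p under 0.05 the counts were 0 and 4, and limma without its trend and the plain test called 0. Pycard, the adaptor that joins AIM2 to caspase-1, had signals of 576, 541 and 603 in wild type and 399, 139 and 170 in KO. Its mean fell from 573 ± 30.9 to 236 ± 142 (SD, n = 3 each), a log2 difference of -1.40 with a standard error of 0.32 (adjusted p = 0.0323 from limma). The KO arrays on which Ifi202b was bright were the lower ones for Pycard, which spanned 1.47 on the log2 scale within KO, and KO replicate 1 also lay under all wild-type arrays.

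Gsdmd, the pore-forming protein cleaved downstream of inflammasomes, had signals of 301, 371 and 283 in wild type and 186, 151 and 174 in KO. Its log2 difference was -0.86 with a standard error of 0.18 (adjusted p = 0.0242 from limma), and the KO arrays differed by 0.29. Both calls ended without any 1 wild-type array, with adjusted p-values from 0.111 to 0.114 for Pycard and from 0.0662 to 0.142 for Gsdmd. They also ended without KO replicate 2 (0.0884 and 0.0671), and that of Pycard without KO replicate 3 (0.0608). Limma without its trend gave adjusted p-values of 0.161 for Pycard and 0.0838 for Gsdmd, and the plain test 0.248 and 0.110. Casp1, the caspase of the AIM2 inflammasome, lay under the filter on all arrays, with signals from 3.84 to 26.3.

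Cells of the blood lineage, which express Ifi200 genes strongly, were looked for by their markers. Of 21 macrophage and myeloid markers 11 passed the filter. Limma called 0 higher and 0 lower, against 2.87% and 2.89% of all tested probe sets. At an unadjusted p under 0.05, for which no such share is given, the counts were 3 higher and 1 lower. The signals of all 21, dim ones included, summed to 1408 to 1810 in wild type and to 2395, 1444 and 2001 on KO replicates 1, 2 and 3. On these unscaled sums KO replicates 1 and 3 lay above all wild-type arrays and KO replicate 2 among them. The median signal over all probe sets was 108 on KO replicate 1, against 80.5 to 88.1 on the other arrays. The part of this shift in the sums was not tested. The markers with the lowest p were Cd14 and Ctss, and neither passed the test. Cd14, a lipopolysaccharide co-receptor, had signals of 282, 223 and 187 in wild type and 32.6, 86.8 and 126 in KO (adjusted p = 0.0557 from limma). Ctss, a lysosomal protease, had 35.1, 8.74 and 31.2 in wild type and 208, 41.8 and 177 in KO (adjusted p = 0.0963 from limma). Of the complement genes that mark tissue macrophages, C1qb had 36.5, 18.7 and 38.0 in wild type and 204, 88.0 and 57.7 in KO (adjusted p = 0.117 from limma), while C1qa and C1qc had 2.48 to 9.88 on the 6 arrays. All wild-type signals of Ctss and C1qb lay under the filter, so both genes passed it only through KO arrays. All KO arrays lay above all wild-type arrays for Ctss and C1qb and under them for Cd14. Such separation was found in 14.3% of all tested probe sets with KO higher and in 13.1% with KO lower. No such share is given for probe sets that passed only through KO arrays, so the separation of Ctss and C1qb has no matched background. The part of such cells in the Ifi202b signals was not tested. Of 8 lymphocyte markers on the array 1 passed the filter and 0 were called, with 1 lower at an unadjusted p under 0.05. Their sum was 329 to 371 in wild type and 223 to 323 in KO. In whole cultures, fewer cells of a type and less RNA per cell cannot be told apart.

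Markers of the other cells of a rib culture differed between the groups. The counts by limma are set against 2.87% higher and 2.89% lower over all tested probe sets. Of 15 chondrocyte markers, all tested, 5 rose and 0 fell, among them the proteoglycan gene Acan (4819 ± 560 in wild type and 9132 ± 1877 in KO, SD, n = 3 each). The summed signal of the list was 117730 to 143669 in wild type and 169579 to 234287 in KO. Of 10 fibroblast and perichondrium markers 4 rose and 3 fell, with sums of 68393 to 80336 and 81861 to 99132. Of 9 tested mesothelial markers 8 fell, and the 10 on the array had sums of 4734 to 7856 in wild type and 702 to 1290 in KO. Limma without its trend called 1 mesothelial marker and 0 of the chondrocyte and fibroblast lists, and the plain test called 0 of all 3 lists. Of 3 tested endothelial markers 0 were called by limma, also at an unadjusted p under 0.05. Mesothelial markers were thus lower on all 3 KO arrays, KO replicate 1 included, and their part in the values of Pycard, Gbp2 and the other interferon-related genes that fell was not tested.

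The targeted gene separated the groups on each array, with Slc39a13 signals of 901 to 1081 in wild type and 100 to 196 in KO. KO replicate 1 correlated with the other 5 arrays at 0.941 to 0.949, while those correlated with each other at 0.961 to 0.980, and its median signal was 108 against 80.5 to 88.1. Xist, which is transcribed in female cells, had signals of 5194 on wild-type replicate 3 and 6445 on KO replicate 2 and of 79.0 to 107 on the rest, and the Y-linked gene Eif2s3y was correspondingly low on those 2 arrays. Ifi202b was thus bright on 1 KO array with high Xist and on 1 with low Xist, and dim on a wild-type array with high Xist.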

How the data were processed

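Total RNA of 3 wild-type and 3 Slc39a13-KO chondrocyte cultures was hybridized to Affymetrix Mouse 430 2.0 arrays, 1 sample per array. The deposited values are probe set intensities on a linear scale. The authors' processing notes name MAS5, with no version, and their methods name gcRMA in GeneSpring; the unequal quantiles of the arrays and the linear scale do not settle which software wrote them. No detection calls were used. The number of arrays limits the precision.

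The 64 control probe sets were removed. Signals were taken as log2(signal + 7.96), where 7.96 is the 10th percentile of all signals, and those whose log2 values averaged less than their 40th percentile (5.80, a signal of 47.8) were left out as dim. Groups were compared on the remaining 27022 probe sets with limma 3.58.1 in R 4.3.3 (lmFit, eBayes with a trend, two-sided, KO minus wild type, no covariates), with Benjamini-Hochberg adjustment over all of them and a threshold of 0.05. The fit was tested on simulated data. A probe set ending in _s_at or _x_at may bind several transcripts, which matters in a family of near-identical genes. Of the non-control probe sets 34945 have 1 symbol, 932 several and 9160 none. Lists and neighbors use the brightest tested probe set with a single symbol.

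The members and gene lists were chosen with earlier results of these data known. The text names every listed gene, Slc39a13, neighbors that were called or spanned at least 1 on the log2 scale within KO, up to 3 called genes of a list, and the 5 genes most correlated with Ifi202b. Mndal, Ifi207, Ackr1, Fmn2, Fh1, Desi2, Casp1, C1qa, C1qb, C1qc, Xist, Eif2s3y and the genes of the closing section outside this rule were named after their values were seen. Alternatives changed the filter, pseudocount, scaling, test (limma without its trend, or a plain test of each probe set) and arrays used; leaving out both arrays of high Xist was chosen after seeing the data. Promoters were searched in the RefSeq table of GRCm38.p6. Numbers from 1 to 3 name replicates as the labels do and were not used to pair samples, and the check described under the alternatives cannot settle whether they do.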

Additional observations from a re-analysis of the deposited data

How the results depend on the processing

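Ifi202b is described without a test under the alternatives as well. No alternative called any of the other Ifi200 probe sets, except that leaving out 1 array gave 0 to 1 lower (1 without KO replicate 3, in 1452349_x_at). The count of such probe sets spanning at least 1 within KO, 1 as reported, was 5 with no filter, 0 with the filter at the 60th percentile, 0 with the pseudocount at the 25th percentile, 0 without both arrays of high Xist and 0 to 1 with 1 array left out (0 without KO replicate 2 or 3). With the pseudocount at the 25th percentile, Ifi202b on 1421551_s_at stood 5.07 and 5.12 above the wild-type mean on KO replicates 2 and 3. The log2 difference of Ifi204 turned to -0.10 with quantile normalization, -0.053 with median centring, -0.072 without wild-type replicate 1, -0.066 without KO replicate 1 and -0.20 without KO replicate 3, and it ranged from -0.20 to 0.39 with 1 array left out; none of these passed the test. Over all probe sets, 776 higher and 781 lower became 134 and 277 with median centring, 25 and 32 with limma without trend, 18 and 14 with the plain test of each probe set, 102 and 111 without both arrays of high Xist, and 229 to 1028 and 185 to 1231 with 1 array left out (fewest without wild-type replicate 2, most without KO replicate 3). Interferon-stimulated genes lower in KO, 2 as reported, were 1 with the filter at the 60th percentile, 1 with median centring, 0 with limma without trend, 0 with the plain test of each probe set, 0 without both arrays of high Xist and 0 to 5 with 1 array left out (5 without KO replicate 1, 0 without any 1 wild-type array). The numbers 1 to 3 were not used to pair the samples. Deviations from the group means correlated at 0.037, -0.0002 and -0.060 within a number, and from -0.063 to 0.062 across numbers. With 3 arrays in each group these values cannot show whether cultures of the same number were paired. With the replicate block the counts were 398 higher and 414 lower, with 1 interferon-stimulated gene lower. The cause of these shifts was not tested. Dim signals limit what can be said of Aim2 and of 3 of the 4 Ifi203 probe sets.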

Other observations

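Besides Ifi202b, 11 probe sets had both KO replicates 2 and 3 above the other 4 arrays by a log2 gap of at least 1; these were singled out after their values were seen and were not tested. They belong to 7 named genes, and 3 have no symbol. Spata33, which lies on chromosome 8, had signals of 20.1, 18.5 and 44.7 in wild type and 40.5, 150 and 138 in KO, a gap of 1.47. Its wild-type signals and that of KO replicate 1 lie under 47.8, so it passed the filter only through KO replicates 2 and 3. Mc1r, named above for its correlation with Ifi202b, is also annotated to chromosome 8. Hddc3, on chromosome 7, had 116, 131 and 143 in wild type and 95.2, 339 and 643 in KO, a gap of 1.20. Tpte (chromosome 8), Fabp7 (chromosome 10) and A930005H10Rik (chromosome 3) had gaps of 1.26, 1.19 and 1.13. Rgs4 and Wdfy1, on chromosome 1 like the Ifi200 genes, had gaps of 1.11 (on the dimmer Rgs4 probe set) and 1.06, and the brighter of both Rgs4 probe sets had 1.01. On KO replicate 1 the brighter Rgs4 probe set had a signal of 1332, against 329 to 396 in wild type.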
